A study of Mus musculus with 10 samples.

Results

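The genes described here are 10 genes that macrophages and monocytes express: Siglec1, Cd5l, Marco, Cd68, Adgre1, Csf1r, Mertk, Ly6c2, Ccr2 and Plac8. They were taken by gene name from the 54987 genes of the deposited expression table, which held a row for each of the 10. RNA was measured in the whole popliteal node, the lymph node that drains the hind paw, of male BALB/c mice aged 6 to 8 weeks, at the labelled day 15. Acu mice (3 libraries, numbered 4, 6 and 28) received 0.1 ml of complete Freund's adjuvant under the skin of the right hind paw and acupuncture at ST36. AIA mice (4 libraries, 5, 10, 31 and 38) received the same adjuvant, an oil with killed mycobacteria that induces arthritis, and no acupuncture. Control mice (3 libraries, 15, 16 and 17) received the same volume of saline. A sham acupuncture group that the labels' protocols mention was not analysed here, and the labels leave unsaid whether the libraries of a group are separate animals. The p-values below therefore measure spread among libraries, which may be technical.

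A lymph node holds macrophages that live in its sinuses and medulla and monocytes that arrive from blood. Sinus macrophages catch particles and pathogens carried by lymph, and medullary macrophages clear dying cells. Monocytes leave the bone marrow through the chemokine receptor Ccr2, enter inflamed tissue and its draining node, and can become macrophages or dendritic cells. The growth factor receptor Csf1r keeps most cells of this lineage alive. In whole tissue, fewer cells of a type and less RNA per cell cannot be told apart.

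Values are FPKM (fragments per kilobase of gene, scaled to library size), so levels of different genes can be set side by side per length. The reads recovered from them numbered 13269763 to 18926894 per library. The libraries labelled Control 17 and Acu 4 went against their labels. Prl8a2, a decidual prolactin of pregnancy, stood at 3901 FPKM in the one labelled Acu 4 and at 10739 FPKM in the one labelled Control 17, while the remaining 8 held 1.36 FPKM at most. Each of 13 markers of decidua and uterus exceeded 1 FPKM in both, and Xist, a transcript of female cells, was 60.1 FPKM in the one labelled Acu 4 and 87.2 FPKM in the one labelled Control 17 although the mice are labelled male. The mean of 10 B cell genes was, on the log2(FPKM + 1) scale, 0.40 in the library labelled Acu 4 and 0.27 in that labelled Control 17, against 5.80 to 6.36 in 7 of the others. Control 15 also lacked lymphocyte genes, with a B cell mean of 0.52 and a T cell mean of 0.61, and both Control 15 and Control 16 held fat and muscle RNA. Adipoq, an adipocyte hormone, was 1.23 to 13.6 FPKM in the AIA libraries, against 1294 FPKM in Control 15 and 336 FPKM in Control 16. AIA 10 had 15116 genes above 0, against 21224 to 24411 in the other libraries, and 152 of the 6454 genes that reached 5 FPKM in each of the other AIA libraries were listed at 0 in it (2.36%). Results are therefore given over all 10 libraries and over the 8 libraries without those labelled Control 17 and Acu 4, and Control 15 and AIA 10 are named where they decide a value.

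Over the 8 libraries, 5 of the 10 genes were called higher in AIA than in Control and none lower, beside 4.36% and 9.06% of all genes. The 5 genes were the monocyte genes Ly6c2, Ccr2 and Plac8, the growth factor receptor Csf1r and the secreted macrophage protein Cd5l. Their log2 fold changes were 1.28 to 4.51. The other 5 genes, Siglec1, Marco, Cd68, Adgre1 and Mertk, did not pass the test. Over all 10 libraries none of the 10 passed. None differed between Acu and AIA nodes in either set of libraries.

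Ly6c2 codes for a surface protein that marks classical monocytes in mouse blood. It is also found on some plasma cells, T cells and plasmacytoid dendritic cells. Its level was 2.09 FPKM in the library labelled Acu 4, 20.0 FPKM in Acu 6 and 21.6 FPKM in Acu 28. It was 21.5, 100.6, 25.2 and 49.9 FPKM in AIA 5, 10, 31 and 38. It was 2.62 and 1.84 FPKM in Control 15 and 16 and 5.16 FPKM in the library labelled Control 17. Every AIA library stood above every Control library, and AIA 10 was the highest of all. Ly6c2 spans 75108158 to 75111970 of chromosome 15 (mm10, minus strand).

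Ly6c2 has a near-identical neighbour, Ly6c1, which blood vessel cells express. The longest coding transcripts of the 2 genes, of 822 and 844 bases, were identical at 97.6% of 822 aligned bases, and 252 of the 773 stretches of 50 bases in Ly6c2 (32.6%) occurred unchanged in Ly6c1. Reads from such stretches could belong to either gene, so the level of Ly6c2 is uncertain. The deposited length of Ly6c2 is 2740 bases, and the share of its FPKM that such stretches carry was not measured. Ly6c1 was 107 and 118 FPKM in Acu 6 and 28, 79.1 to 285 FPKM in AIA and 242 and 76.2 FPKM in Control 15 and 16. It was 941 FPKM in the library labelled Acu 4 and 1635 FPKM in the library labelled Control 17, the libraries where Ly6c2 was 2.09 and 5.16 FPKM. These 2 libraries, which went against their labels, were the highest in Ly6c1 and among the lowest in Ly6c2. Whether Ly6c1 reads add to the level or the change of Ly6c2 was not tested. Over the 8 libraries Ly6c1 differed between AIA and Control by -0.03 on the log2 scale (SE 0.63, limma adjusted p = 0.981), against 3.70 for Ly6c2.

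The promoters of both Ly6c genes are shown because their sequences differ more than those of the transcripts, and those of Ccr2, Plac8 and Cd5l follow because these genes passed the same test as Ly6c2. They are RefSeq sequences of build GRCm38.p6, from 250 bases before to 50 bases after the start site of the RefSeq entry, read 5′ to 3′ along the gene. The entry nearest the deposited gene start was taken, and its start site can differ from that start. Entries matched 7 of the 10 genes, and none was found by symbol for Siglec1, Adgre1 and Csf1r. Capitals mark matches to 3 motifs searched on both strands: the PU box GAGGAA, bound by the macrophage factor PU.1, the AP-1 site TGAGTCA and the C/EBP site TTGCNNAA. Ly6c2 is at chr15:75111922-75112221 and Ly6c1 at chr15:75048788-75049087, both on the minus strand.
Ly6c2: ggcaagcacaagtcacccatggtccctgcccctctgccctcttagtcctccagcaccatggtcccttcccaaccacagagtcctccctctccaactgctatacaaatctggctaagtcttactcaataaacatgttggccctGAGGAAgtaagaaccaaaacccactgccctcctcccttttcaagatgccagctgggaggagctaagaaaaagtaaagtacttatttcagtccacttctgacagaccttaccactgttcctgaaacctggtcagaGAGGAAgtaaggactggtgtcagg
Ly6c1: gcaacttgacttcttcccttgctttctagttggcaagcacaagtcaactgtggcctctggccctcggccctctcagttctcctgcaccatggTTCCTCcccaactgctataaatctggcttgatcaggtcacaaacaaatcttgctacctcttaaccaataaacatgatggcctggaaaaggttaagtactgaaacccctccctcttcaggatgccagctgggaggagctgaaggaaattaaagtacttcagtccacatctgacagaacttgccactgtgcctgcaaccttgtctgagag
These promoters were identical at 208 of 266 aligned bases (78.2%). A PU box occurred in 28.1% of the 32544 promoters of the table, an AP-1 site in 5.19% and a C/EBP site in 10.8%. Ly6c2 held 2 PU boxes, starting at -108 and 27 from the start site, and Ly6c1 held 1 at -158 on the opposite strand.

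Ccr2 codes for the receptor of the chemokines Ccl2, Ccl7 and Ccl12. Ccl8 is grouped with them here, and whether it acts on mouse Ccr2 was not tested. The level of Ccr2 was 2.61, 5.15 and 7.89 FPKM in the library labelled Acu 4, Acu 6 and Acu 28. It was 11.9, 11.5, 6.67 and 8.84 FPKM in AIA 5, 10, 31 and 38, and 3.66, 2.54 and 2.601 FPKM in Control 15, Control 16 and the library labelled Control 17. The lowest AIA library thus lay above the highest Control library, and Acu 28 lay within the AIA range. Ccr2 lies on chromosome 9 at 124101950 to 124113557, plus strand. Its promoter entry, chr9:124101933-124102232 on the plus strand, held none of the 3 motifs. Most of this stretch lies inside the deposited gene, so most of the sequence before the deposited start was not searched.
Ccr2: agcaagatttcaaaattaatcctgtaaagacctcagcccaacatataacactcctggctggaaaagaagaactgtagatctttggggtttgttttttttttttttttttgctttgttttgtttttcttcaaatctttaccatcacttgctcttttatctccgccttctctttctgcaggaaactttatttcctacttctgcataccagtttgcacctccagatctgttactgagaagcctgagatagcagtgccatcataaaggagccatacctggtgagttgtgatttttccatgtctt

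Plac8 codes for a small cysteine-rich protein named for its expression in placenta, and it is also abundant in monocytes, neutrophils and plasmacytoid dendritic cells. Its range across libraries was the widest of the 10 genes in FPKM. It was 231 FPKM in the library labelled Acu 4, 90.1 FPKM in Acu 6 and 131 FPKM in Acu 28. It was 80.9, 375, 116 and 220 FPKM in AIA 5, 10, 31 and 38. It was 3.48 and 11.2 FPKM in Control 15 and 16, and 729 FPKM in the library labelled Control 17. The highest value of all 10 libraries and the lowest thus both carried the Control label. Trophoblast genes, a marker list of the placenta, summed to 5726 FPKM in the library labelled Acu 4 (9 of 11 above 1 FPKM) and to 71.6 FPKM in the library labelled Control 17 (7 of 11), and to at most 1.47 FPKM in the others. The part of placental RNA in the Plac8 level of these libraries was not tested. The gene lies on chromosome 5 at 100553725 to 100572245, minus strand, and its promoter (chr5:100572156-100572455, minus strand) held 2 PU boxes, at -146 and, on the opposite strand, at -15.
Plac8: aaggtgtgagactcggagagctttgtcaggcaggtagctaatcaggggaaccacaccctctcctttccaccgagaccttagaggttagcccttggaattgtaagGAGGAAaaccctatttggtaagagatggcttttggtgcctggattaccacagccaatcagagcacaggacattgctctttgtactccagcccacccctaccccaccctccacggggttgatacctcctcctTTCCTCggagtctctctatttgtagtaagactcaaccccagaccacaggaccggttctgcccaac

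Cd5l codes for a protein that tissue macrophages secrete and that binds IgM in serum. Acu 6 and 28 had 25.4 and 23.0 FPKM, and the library labelled Acu 4 had 0.0925 FPKM from 3 reads. AIA 5, 10, 31 and 38 had 2.44, 19.4, 5.78 and 30.6 FPKM, from 73 to 1058 reads. Control 15, Control 16 and the library labelled Control 17 had 0.0299, 0.0636 and 0.224 FPKM, from 1, 2 and 7 reads. The gene was thus nearly absent from the libraries labelled Control, and the AIA libraries spread widely among themselves without overlap with Control. Cd5l lies on chromosome 3 at 87357881 to 87371073, plus strand, and its promoter (chr3:87357631-87357930, plus strand) held 1 PU box, at -66 on the opposite strand.
Cd5l: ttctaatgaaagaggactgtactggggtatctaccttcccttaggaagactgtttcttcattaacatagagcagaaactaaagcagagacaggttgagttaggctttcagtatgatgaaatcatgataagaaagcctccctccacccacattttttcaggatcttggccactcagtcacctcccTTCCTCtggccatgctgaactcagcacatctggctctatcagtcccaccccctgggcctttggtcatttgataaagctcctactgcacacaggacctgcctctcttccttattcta

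Siglec1 and Marco are the classical genes of sinus macrophages. Siglec1, also called CD169, binds sialic acids on cells and virus particles, and Marco is a scavenger receptor of medullary macrophages that takes up bacteria. Siglec1 (chromosome 2, 131069220 to 131086765, minus strand) was 3.18 FPKM in the library labelled Acu 4 and 2.95 and 2.75 FPKM in Acu 6 and 28. It was 1.13, 0.926, 1.42 and 3.57 FPKM in AIA 5, 10, 31 and 38, and 2.15, 4.56 and 1.91 FPKM in Control 15, Control 16 and the library labelled Control 17. Of the 4 AIA libraries 3 lay below every Acu and every Control library, and AIA 38 lay among the Control libraries. Marco (chromosome 1, 120474538 to 120505024, minus strand) was 6.23 and 2.82 FPKM in Acu 6 and 28 and 0.0653 FPKM in the library labelled Acu 4. AIA 5, 10, 31 and 38 held 1.35, 1.33, 1.14 and 3.70 FPKM of Marco. It was 0.126 FPKM in Control 15, 10.46 FPKM in Control 16, and not detected in the library labelled Control 17, where 0 reads allow up to 0.102 FPKM. Marco was therefore both highest and lowest within Control, and Control 16, the Control library with lymphocyte genes, held the highest Marco and Siglec1 of all.

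Cd68, Adgre1, Csf1r and Mertk are made by macrophages of many tissues. Cd68, a protein of macrophage lysosomes (chromosome 11, 69664213 to 69666153, minus strand), was 146, 52.0 and 92.2 FPKM in the library labelled Acu 4, Acu 6 and Acu 28. It was 130, 13.3, 73.8 and 97.5 FPKM in AIA 5, 10, 31 and 38, and 37.0, 19.2 and 290 FPKM in Control 15, Control 16 and the library labelled Control 17. AIA 10 was the lowest library of all, and the other 3 AIA libraries stood above Control 15 and 16. Adgre1, whose product is a classical macrophage surface antigen (chromosome 17, 57358686 to 57483529, plus strand), was 8.38, 2.20 and 2.23 FPKM in the library labelled Acu 4, Acu 6 and Acu 28. It was 2.65, 2.31, 0.781 and 1.27 FPKM in AIA 5, 10, 31 and 38, and 5.87, 0.878 and 3.73 FPKM in Control 15, Control 16 and the library labelled Control 17. Adgre1 was thus highest in the 3 libraries with the fewest lymphocyte transcripts, and it overlapped between all groups.

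Csf1r (chromosome 18, 61105572 to 61132149, plus strand) codes for the receptor of the growth factors Csf1 and Il34. It was 67.1, 38.1 and 47.4 FPKM in the library labelled Acu 4, Acu 6 and Acu 28, and 54.1, 52.2, 35.5 and 52.8 FPKM in AIA 5, 10, 31 and 38. Control 15 and 16 both had 19.1 FPKM, and the library labelled Control 17 had 67.6 FPKM, the highest of all. Mertk (chromosome 2, 128698956 to 128802894, plus strand) codes for a receptor that binds dying cells. It was 10.02, 6.21 and 6.55 FPKM in the library labelled Acu 4, Acu 6 and Acu 28, 5.05, 4.65 and 7.09 FPKM in AIA 5, 31 and 38, and 4.91, 1.75 and 10.7 FPKM in Control 15, Control 16 and the library labelled Control 17. AIA 10 had 0 reads of Mertk, which allow up to 0.0610 FPKM. The 871 bases that Csf1r shares with Hmgxb3 on the opposite strand, and the 2435 bases that Mertk shares with its antisense transcript Gm14011, could carry reads of either gene, since the sources used here do not state that counting used the strand. These neighbours reached at most 8.67 and 0.416 FPKM.

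**Figure D1:**
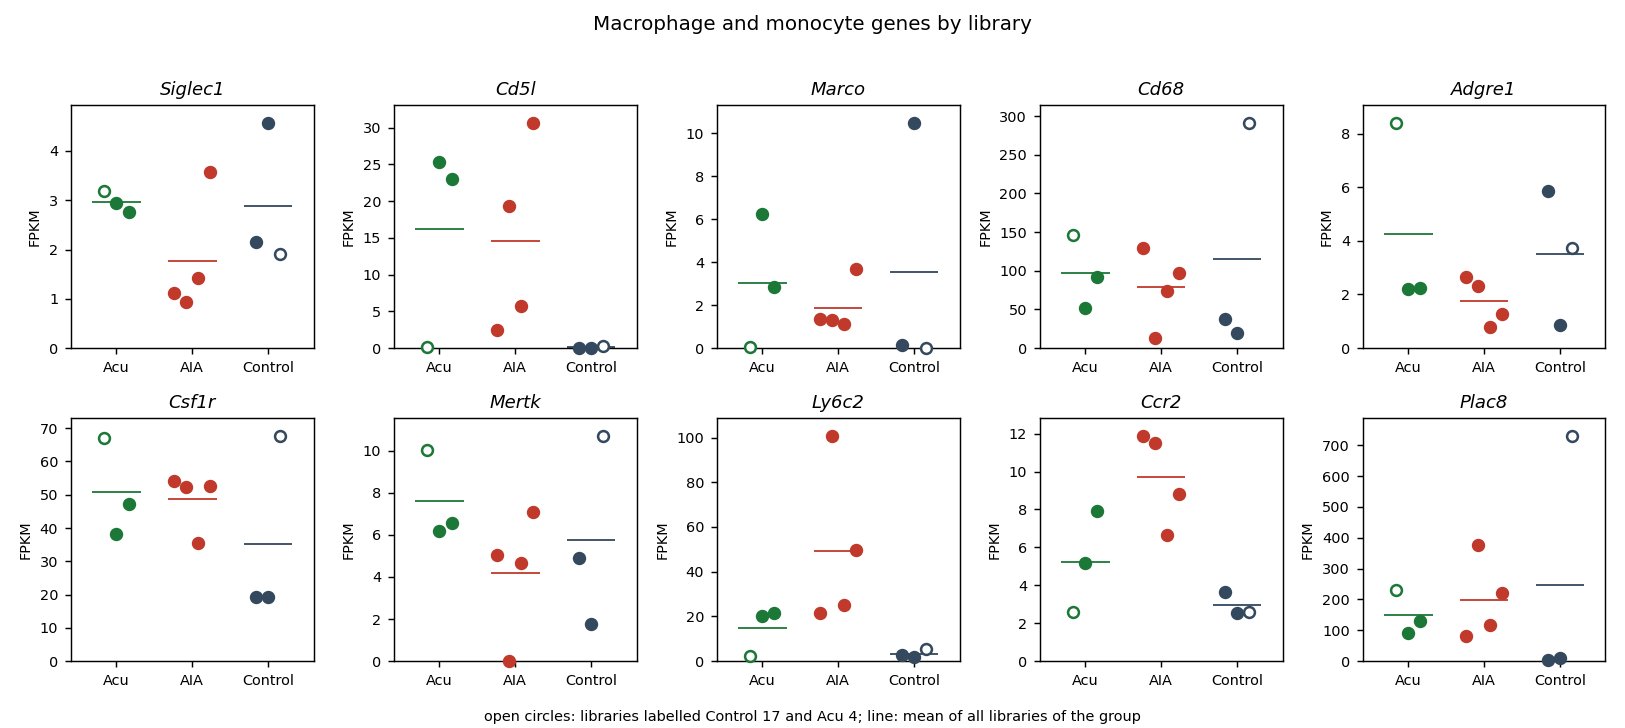
Level of each of the 10 genes in every library, in FPKM on a linear axis from 0, by group (Acu, AIA, Control from left to right). Points are libraries, open circles are those labelled Control 17 and Acu 4, and the line is the mean of all libraries of the group. Ly6c2, Ccr2 and Cd5l show no overlap between AIA and Control, and the open circle at 729 FPKM lifts the Control mean of Plac8.

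The first comparison, AIA against Control, asks what adjuvant did to these genes. Plac8 averaged 198 ± 132 FPKM in AIA (SD, n = 4) and 7.33 ± 5.45 FPKM in Control 15 and 16 (SD, n = 2), a log2 fold change of 4.51 (SE 0.67, limma adjusted p = 0.00577) over the 8 libraries. Ly6c2 averaged 49.3 ± 36.4 FPKM in AIA and 2.23 ± 0.550 FPKM in Control, a change of 3.70 (SE 0.58, limma adjusted p = 0.00711). Cd5l averaged 14.5 ± 12.9 FPKM in AIA and 0.0467 ± 0.0238 FPKM in Control, a change of 3.40 (SE 0.79, limma adjusted p = 0.0280). Since fold changes are on the log2(FPKM + 1) scale, the change of Cd5l, which is near 0 in Control, is understated. Control 15 and 16 held 1 and 2 reads of Cd5l. It reached the level needed to be tested, 0.5 FPKM in 3 or more libraries, through AIA and Acu libraries alone. Its call and its lack of overlap are therefore no separate support. Ccr2 averaged 9.71 ± 2.43 FPKM in AIA and 3.10 ± 0.796 FPKM in Control, a change of 1.37 (SE 0.33, limma adjusted p = 0.0315). Csf1r averaged 48.7 ± 8.79 FPKM in AIA and 19.1 ± 0.0200 FPKM in Control, a change of 1.28 (SE 0.31, limma adjusted p = 0.0329). These 5 of 10 genes stand beside 4.36% of all 16067 genes called higher in the same fit and 9.06% called lower. All 4 AIA libraries were above both Control libraries for each of them, as were 18.0% of all genes.

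The remaining genes had wide intervals. Cd68 was 1.14 higher (95% interval -0.78 to 3.05, limma adjusted p = 0.402), Siglec1 differed by -0.69 (-1.62 to 0.24, limma adjusted p = 0.296), and Adgre1 by -0.44 (-1.63 to 0.75, limma adjusted p = 0.614). Marco differed by -0.40 (-2.27 to 1.47) and Mertk by 0.02 (-1.78 to 1.81). These intervals hold changes of either sign, several of them of more than 1 on the log2 scale. Marco turned on Control 15. Without that library as well, it differed by -2.07 (-3.38 to -0.76, limma adjusted p = 0.114). Mertk and Cd68 turned on AIA 10. Without AIA 10 in place of Control 15, Mertk differed by 0.69 (-0.14 to 1.53). Without AIA 10, Cd68 passed at 1.83 (SE 0.42, limma adjusted p = 0.0253) and the count was 6 of 10 genes, beside 9.25% of all genes called higher.

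The calls rested on which libraries entered. With all 10 libraries, 0 of 10 genes passed, beside 0.0235% of 17010 genes called in either direction. At an unadjusted p under 0.05, 3 of the 10 passed there, beside 4244 of the 17010 genes. They were Cd5l, Ly6c2 and Ccr2, with limma adjusted p-values of 0.122, 0.0693 and 0.0778, and voom on the recovered reads called 0. These 3 genes had no overlap between AIA and Control over all libraries, as had 11.4% of genes in the same direction. With Control 15 left out as well, 0 of 10 passed beside 2.83% of genes called in either direction. Control then was Control 16 alone, assumed to vary like the other groups, and Ly6c2 had a change of 3.88 (limma adjusted p = 0.0575), Plac8 of 3.79 (0.0665), Cd5l of 3.38 (0.196), Ccr2 of 1.57 (0.106) and Csf1r of 1.28 (0.152).

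Leukocyte content moved with these changes. Ptprc, which codes for the CD45 protein of all leukocytes, was 45.4 to 56.6 FPKM in AIA, against 1.80 FPKM in Control 15 and 24.0 FPKM in Control 16, and passed the same test (2.62, SE 0.72, limma adjusted p = 0.0486). Relative to Ptprc, as a difference of log2(FPKM + 1), Ly6c2 was -1.44 and -1.06 in Acu 6 and 28, -1.20 to 0.82 in AIA, 0.37 in Control 15 and -3.14 in Control 16. Of the 4 AIA values, 3 lay between those of these 2 Control libraries, and that of AIA 10 lay above both. Plac8 relative to Ptprc was 0.67 and 1.48 in Acu 6 and 28, 0.67 to 2.71 in AIA, and 0.67 and -1.04 in Control 15 and 16. Ccr2 relative to Ptprc was -3.22 and -2.41 in Acu 6 and 28, -2.72 to -2.0 in AIA, 0.73 in Control 15 and -2.82 in Control 16. For Siglec1 the order was the other way. It was -3.86 and -3.65 relative to Ptprc in Acu 6 and 28 and -4.90 to -3.35 in AIA, against 0.17 and -2.17 in Control 15 and 16, with no overlap between AIA and these Control libraries. Marco likewise was -4.63 to -3.31 in AIA, against -1.32 and -1.13 in Control 15 and 16. Adgre1 was -4.82 to -3.82 in AIA, against 1.29 and -3.74 in these Control libraries, again without overlap. Ptprc was itself higher in AIA, so a gene at equal levels in both groups stands lower relative to it there. The Marco value of Control 15 rests on 4 reads (0.126 FPKM) beside 1.80 FPKM of Ptprc. The 1 added to each FPKM thus largely sets it, and the separation of Control 15 from AIA for Marco is uncertain.

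Relative to the mean of Cd68, Adgre1 and Csf1r in the same library, Ly6c2 and Plac8 stood higher in Acu 6, Acu 28 and the AIA libraries than in Control 15 and 16, and Ccr2 did so in AIA. Ly6c2 was 0.16 and -0.11 in Acu 6 and 28 and -0.40 to 2.90 in AIA, against -2.26 and -1.69 in Control 15 and 16. Plac8 was 2.28 and 2.43 in Acu 6 and 28 and 1.46 to 4.79 in AIA, against -1.96 and 0.41 in Control 15 and 16. Ccr2 was -1.61 and -1.46 in Acu 6 and 28 and -1.21 to -0.12 in AIA, against -1.90 and -1.37 in Control 15 and 16, so that the Acu values overlapped with Control. AIA 10 gave the highest AIA value of each of these genes, and its Cd68 was 13.3 FPKM, against 73.8 to 130 FPKM in the other AIA libraries. The next highest AIA values were 1.15 for Ly6c2 and 3.27 for Plac8 in AIA 38, and -1.14 for Ccr2 in AIA 31. On this scale Siglec1 was -3.81 to -2.33 in AIA, against -2.47 and -0.72 in Control 15 and 16. Marco was -3.66 to -2.29 in AIA, against -3.95 and 0.33, so both genes overlapped between AIA and these Control libraries. These ratios are descriptions with no test.

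**Figure D2:**
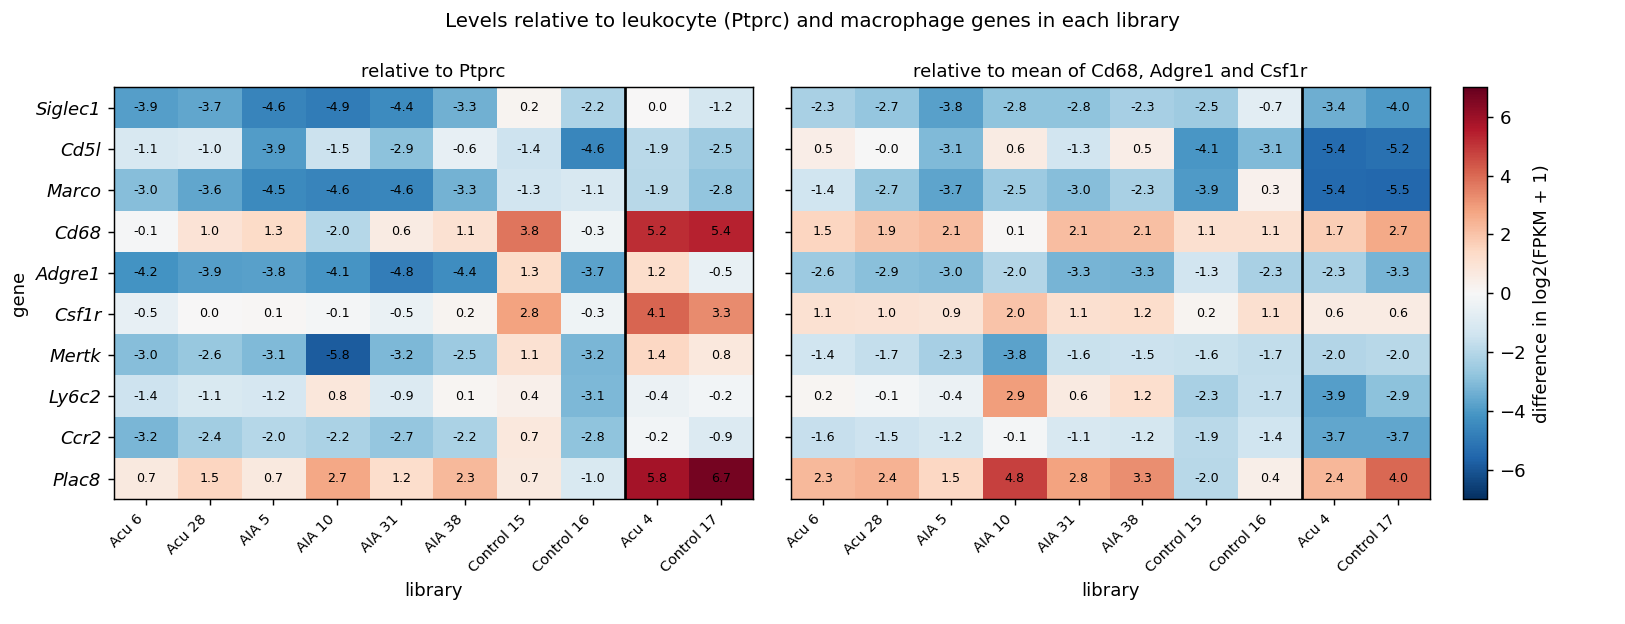
Level of each gene relative to the leukocyte gene Ptprc (left) and to the mean of 3 macrophage genes (right) in every library, as a difference of log2(FPKM + 1), with red for higher and blue for lower. Libraries labelled Acu 4 and Control 17 stand right of the line. Siglec1, Marco and Adgre1 are bluer in the AIA columns than in Control 15 and 16 on the left, where Ptprc is itself higher in AIA. Ly6c2 and Plac8 are redder in the AIA columns than in Control 15 and 16 on the right. The Marco value of Control 15 rests on 4 reads and is largely set by the 1 added to each FPKM.

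Genes of plasma cells and neutrophils, which can make Ly6c2 or Plac8, also stood higher in AIA. In this fit 4.36% of all genes were called higher and 9.06% lower. Plasma cell genes summed to 2915 to 4510 FPKM in AIA, against 141 and 185 FPKM in Control 15 and 16, and 6 of 10 were called higher. Neutrophil genes summed to 76.5 to 801 FPKM in AIA, against 6.70 and 8.63 FPKM in Control 15 and 16, with 4 of 11 called higher. S100a9, a neutrophil and monocyte protein, was 44.1 to 350 FPKM in AIA, against 2.45 and 0.496 FPKM. Plasmacytoid dendritic cell genes summed to 181 to 651 FPKM in AIA and 185 and 433 FPKM in Control 15 and 16, with 0 of 9 called higher and 1 lower. Of the B cell genes 1 of 10 was called higher and of the T cell genes 0 of 10, all with fold changes above 0. Adipocyte genes summed to 69.2 to 323 FPKM in AIA, against 20996 and 7145 FPKM, with 9 of 9 called lower. With Control 15 left out as well, 4 plasma cell genes, 1 neutrophil gene and 0 B cell genes were called higher and 6 adipocyte genes lower, and the median change of the B cell genes was 0.48, against 2.98 with it. The part of these cells and tissues in the results above was not tested.

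Chemokines grouped here with Ccr2 were higher in AIA than in Control nodes. Of 12 ligands and partners of the receptors, 11 could be tested over the 8 libraries. Their median log2 fold change was 0.31, beside 0.00 over all genes. Of the 11, 4 rose and 0 fell, beside 4.36% of all genes called higher and 9.06% lower. All 4 that rose were chemokines of this group. Ccl8 was 77.3, 73.9 and 118 FPKM in the library labelled Acu 4, Acu 6 and Acu 28, and 292, 561, 75.9 and 186 FPKM in AIA 5, 10, 31 and 38. It was 3.69, 16.3 and 11.1 FPKM in Control 15, Control 16 and the library labelled Control 17, well below every library labelled AIA or Acu. Its change in AIA against Control was 4.61 (SE 0.81, limma adjusted p = 0.0106). Ccl12 changed by 4.37 (SE 0.67, limma adjusted p = 0.00664), Ccl7 by 3.94 (SE 0.61, limma adjusted p = 0.00705) and Ccl2, picked after its values were seen, by 3.65 (SE 0.42, limma adjusted p = 0.00307). Over all 10 libraries Ccl8 changed by 4.47, at a limma adjusted p of 0.0546, and none of the 4 passed. Without Control 15 as well, Ccl2 (0.0334) and Ccl12 (0.0486) still had a limma adjusted p under 0.05.

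The ligands of Csf1r and Mertk, also picked after their values were seen, did not pass over the 8 libraries. Csf1 was 10.4 and 11.4 FPKM in Acu 6 and 28, 8.27 to 14.5 FPKM in AIA and 8.48 and 10.3 FPKM in Control 15 and 16, and in the library labelled Acu 4 at 269 FPKM. Il34, the other ligand of Csf1r, was 3.62 to 8.42 FPKM in AIA, against 13.8 and 5.42 FPKM in Control 15 and 16. Gas6 and Pros1, which bridge Mertk to dying cells, had changes of -0.50 (limma adjusted p = 0.527) and -1.29 (limma adjusted p = 0.0550). Among these, Pros1 was nearest to the threshold, at 3.18 to 4.50 FPKM in AIA, against 17.8 and 6.90 FPKM in Control 15 and 16. Without AIA 10 as well it passed, at -1.30 (limma adjusted p = 0.0496).

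**Figure D3:**
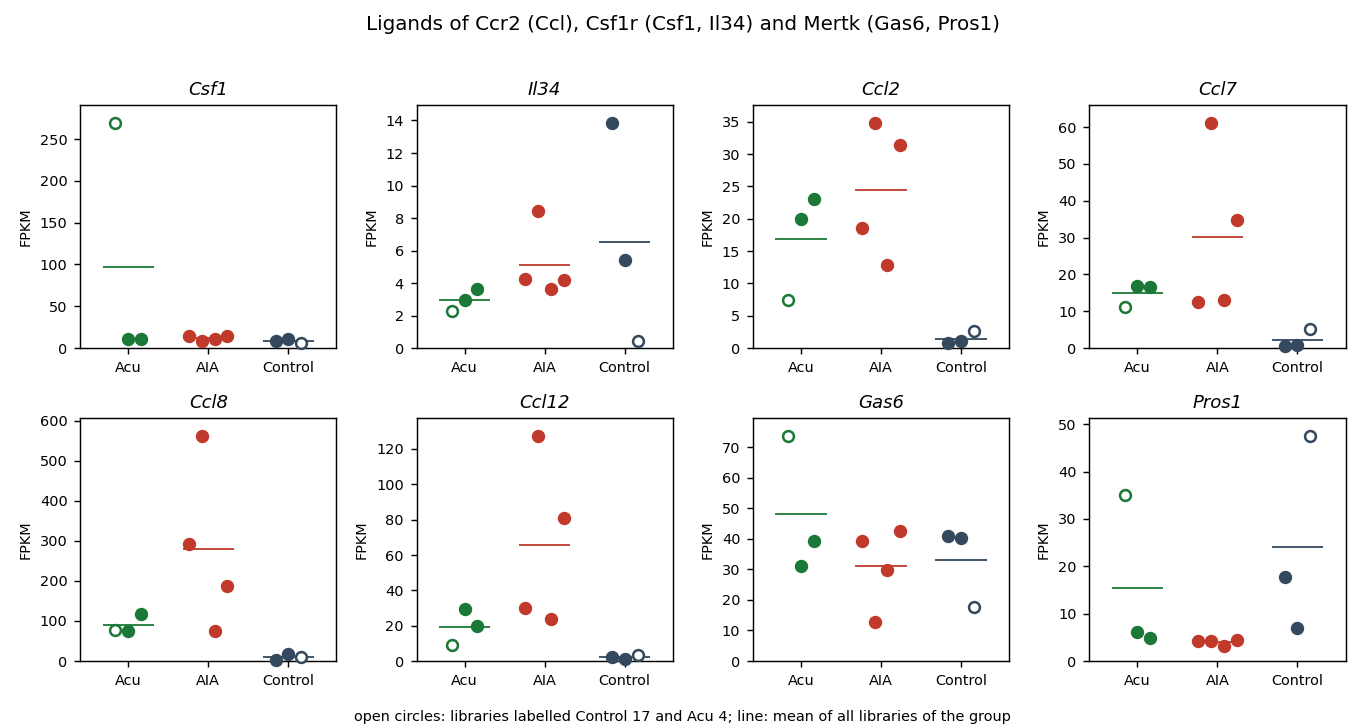
Level of 8 genes grouped here as ligands of the receptors Ccr2 (Ccl2, Ccl7, Ccl8, Ccl12), Csf1r (Csf1, Il34) and Mertk (Gas6, Pros1) in every library, in FPKM on linear axes from 0, by group (Acu, AIA, Control from left to right). Open circles are the libraries labelled Control 17 and Acu 4 and lines are group means over all libraries. The 4 Ccl genes stand higher in every AIA library than in every Control library, and Csf1 stands apart in the library labelled Acu 4 alone, at 269 FPKM.

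Other genes of the lineage were mixed. Of 16 further resident macrophage genes, 13 were tested over the 8 libraries, and 4 rose and 1 fell, with a median of 1.59, beside 4.36% of all genes called higher and 9.06% lower. With Control 15 left out as well, 2 were higher and 1 lower. Vcam1, an adhesion protein of macrophages and stroma, rose by 2.39 (SE 0.34, limma adjusted p = 0.00501), at 20.9 to 40.5 FPKM in AIA, against 3.58 and 5.27 FPKM in Control 15 and 16. Cd163, the haemoglobin scavenger receptor, fell by 1.92 (SE 0.25, limma adjusted p = 0.00396), at 0.140 to 0.598 FPKM in AIA, against 5.02 and 3.74 FPKM. Lyve1, which lymphatic vessel cells also make, and the Fc receptor Fcgr1 rose by 1.47 and 1.97. The phosphatidylserine receptor Timd4 was at 23.7 to 33.9 FPKM in AIA, against 1.18 FPKM in Control 15 and 30.1 FPKM in Control 16, and did not pass.

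Of 18 further monocyte genes, 15 were tested, with a median of 0.81. Of these, 6 rose and 1 fell, beside 4.36% of all genes called higher and 9.06% lower. This count turned on AIA 10. Without AIA 10 as well, 2 were higher and 2 lower, beside 21.5% of all genes called in either direction. Over the 8 libraries Spn, which lymphocytes also express, rose by 2.67, and Ms4a4c rose by 3.73 (limma adjusted p = 0.0438). The Fc receptor Fcgr4 rose by 2.12 (SE 0.58, limma adjusted p = 0.0474), at 8.16 to 27.3 FPKM in AIA, against 5.81 and 1.60 FPKM. Ace, an angiotensin-converting enzyme of patrolling monocytes and of vessels, fell by 1.17. None of these monocyte genes passed once Control 15 was left out as well.

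Transcription factors and scavenger receptors went both ways. Among 12 transcription factors 2 rose and 2 fell (median 0.12). Cebpa, which monocyte precursors and adipocytes use, fell by 3.43 (SE 0.53, limma adjusted p = 0.00678), at 16.7 to 24.5 FPKM in AIA, against 465 and 110 FPKM in Control 15 and 16, the libraries with adipocyte genes. Klf4 fell by 2.77, and Irf8, a factor of monocytes and B cells, had a change of 2.33 that did not pass (limma adjusted p = 0.0893). Among 9 tested scavenger receptors 3 rose and 3 fell (median 0.73). The lipid receptor Cd36, also abundant in fat and muscle, fell by 5.19 (SE 0.63, limma adjusted p = 0.00330), at 8.21 to 24.4 FPKM in AIA, against 1172 and 262 FPKM. Cxcl16 rose by 2.28, and Scarb1 fell by 2.0. Among 12 lysosome genes 1 rose, the cathepsin Ctss (2.61, SE 0.47, limma adjusted p = 0.0118), at 341 to 730 FPKM in AIA, against 75.2 and 84.2 FPKM in Control 15 and 16 (median of the list 0.29). These counts, too, stand beside 4.36% of all genes called higher and 9.06% lower. With Control 15 left out as well, 0 factors were higher and 1 lower, 1 scavenger receptor was higher and 1 lower, and 1 lysosome gene was higher. With all 10 libraries 0 genes of any of these lists passed.

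Acu was compared with AIA to ask what acupuncture changed on top of the adjuvant. With all 10 libraries 0 of 10 genes passed, beside 0.0% of all genes (800 of 17010 at an unadjusted p under 0.05). Over the 8 libraries it was 0 of 10, again beside 0.0% (479 of 16067 unadjusted). Every gene overlapped between the groups in both sets, while 11.1% of all genes did not over all 10 libraries and 17.1% did not over the 8. Ly6c2 averaged 20.8 ± 1.12 FPKM in Acu 6 and 28 (SD, n = 2) and 49.3 ± 36.4 FPKM in AIA (SD, n = 4), a difference of -0.94 (95% interval -2.26 to 0.39, limma adjusted p = 0.984). Ccr2 averaged 6.52 ± 1.94 FPKM in Acu and 9.71 ± 2.43 FPKM in AIA, a difference of -0.50 (-1.26 to 0.25). In the fit of all 10 libraries these 2 genes had unadjusted p-values of 0.0330 and 0.0404, and a limma adjusted p of 0.746 each. Those differences, of -1.88 and -0.85, included the library labelled Acu 4.

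Among the macrophage genes, Cd5l averaged 24.2 ± 1.65 FPKM in Acu 6 and 28 and 14.5 ± 12.9 FPKM in AIA, a difference of 1.19 (-0.63 to 3.0). Marco averaged 4.52 ± 2.41 FPKM in Acu and 1.88 ± 1.22 FPKM in AIA, a difference of 0.95 (-0.92 to 2.82). Siglec1 averaged 2.85 ± 0.137 FPKM in Acu and 1.76 ± 1.22 FPKM in AIA, a difference of 0.57 (-0.36 to 1.5). Both Acu libraries lay within the AIA range for Cd5l and Siglec1, and for Marco Acu 6 lay above it. AIA 38 was the AIA library that reached the Acu values of Siglec1 and Marco. Mertk differed by 0.86 (-0.94 to 2.65), and by 0.18 (-0.66 to 1.02) without AIA 10, which had 0 reads of it. Adgre1 differed by 0.28 (-0.91 to 1.47), Cd68 by 0.21 (-1.71 to 2.12), or -0.49 without AIA 10, Csf1r by -0.17 (-0.89 to 0.54) and Plac8 by -0.62 (-2.15 to 0.91). The interval of Csf1r was the narrowest of the 10 and still allowed a change of 0.89 downward. No gene of the ligand, lineage, factor, scavenger or lysosome lists passed either. Ccl8, at 73.9 and 118 FPKM in Acu 6 and 28 and 75.9 to 561 FPKM in AIA, had a difference of -1.22 (SE 0.81), and the lysosomal glycoprotein Gpnmb, at 12.1 and 16.2 FPKM in Acu and 4.96 to 6.58 FPKM in AIA, one of 1.13 (SE 0.94).

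Acu was also set beside Control, with the same Control libraries as above. With all 10 libraries 0 of 10 genes passed, beside 0.0% of genes (1275 of 17010 unadjusted, and 1 of the 10 genes, Cd5l). Over the 8 libraries 2 of 10 were higher and 0 lower, beside 0.878% of genes called higher and 3.47% called lower. They were Cd5l, at 4.59 (SE 0.92, limma adjusted p = 0.0341), and Plac8, at 3.89 (SE 0.77, limma adjusted p = 0.0330). Here too Cd5l entered the test through AIA and Acu libraries alone. Ly6c2 had a change of 2.77 (SE 0.67, limma adjusted p = 0.0579), Csf1r of 1.11 (0.122) and Ccr2 of 0.86 (0.224). Cd5l, Cd68, Csf1r, Mertk, Ly6c2, Ccr2 and Plac8 were higher in both Acu libraries than in Control 15 and 16, as were 32.4% of all genes. With AIA 10 left out as well, Ly6c2 was also called (2.77, SE 0.41, limma adjusted p = 0.0142) and 3 of 10 passed, beside 5.39% called higher. With Control 15 left out instead, 0 of 10 passed.

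**Figure D4:**
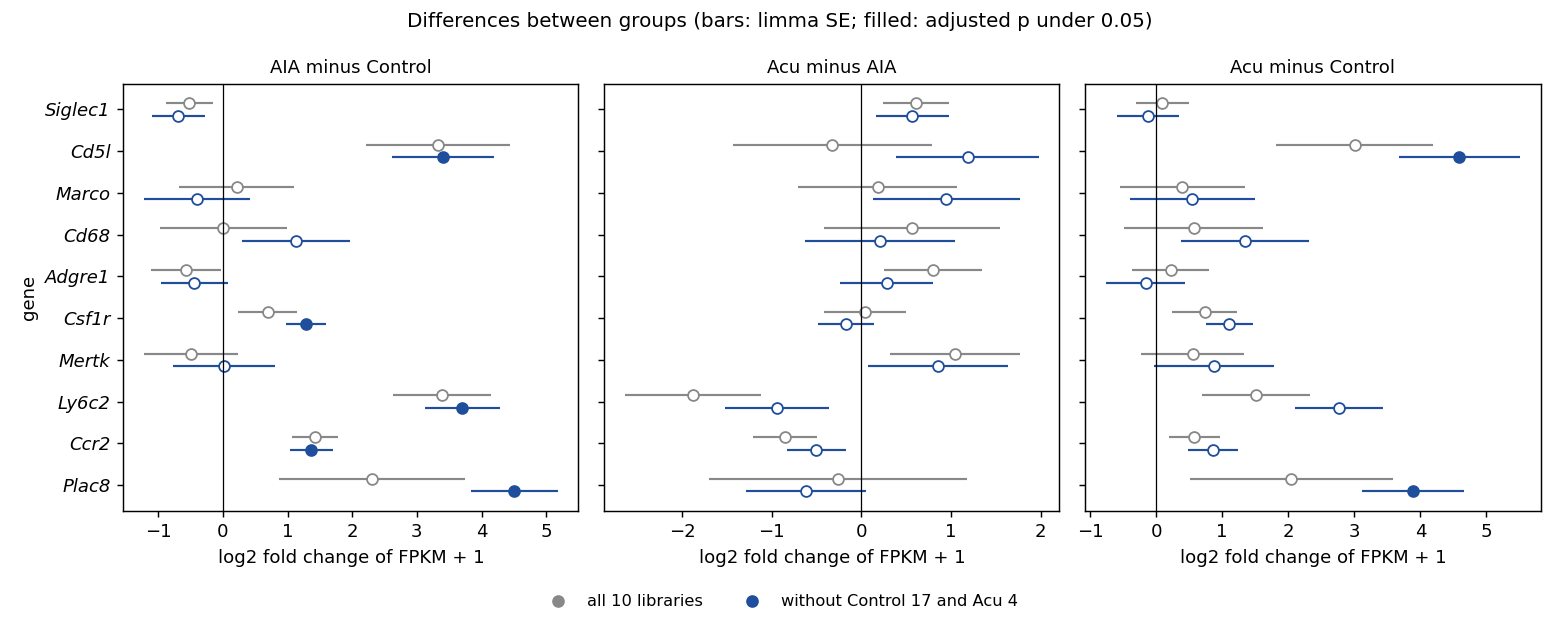
Log2 fold changes of FPKM + 1 for the 10 genes in the 3 comparisons, over all 10 libraries (grey) and without the libraries labelled Control 17 and Acu 4 (blue). Bars are limma standard errors and filled points have an adjusted p under 0.05. Filled points appear in blue alone, 5 in AIA minus Control, 0 in Acu minus AIA and 2 in Acu minus Control.

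Across libraries the 10 genes fell into sets that varied together. Over the 8 libraries, which share the 3 groups and differ in lymphocyte, fat and muscle RNA, Pearson's r of log2(FPKM + 1) was 0.96 between Ly6c2 and Plac8, 0.88 between Ly6c2 and Ccr2, 0.94 between Csf1r and Ccr2 and 0.88 between Cd5l and Plac8. Csf1r thus varied with the monocyte genes, and its r with Cd68 was 0.45 and with Adgre1 -0.14. Cd68 and Mertk had an r of 0.85, and Siglec1 and Marco of 0.74. Siglec1 and Ccr2 ran against each other, at -0.66, as did Marco and Adgre1, at -0.61. Over all 10 libraries the r of Ly6c2 and Plac8 was 0.49 and that of Csf1r and Ly6c2 0.38, while Csf1r and Plac8 stood at 0.92, Cd68 and Mertk at 0.88 and Ly6c2 and Ccr2 at 0.90. These correlations are descriptions with no test.

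**Figure D5:**
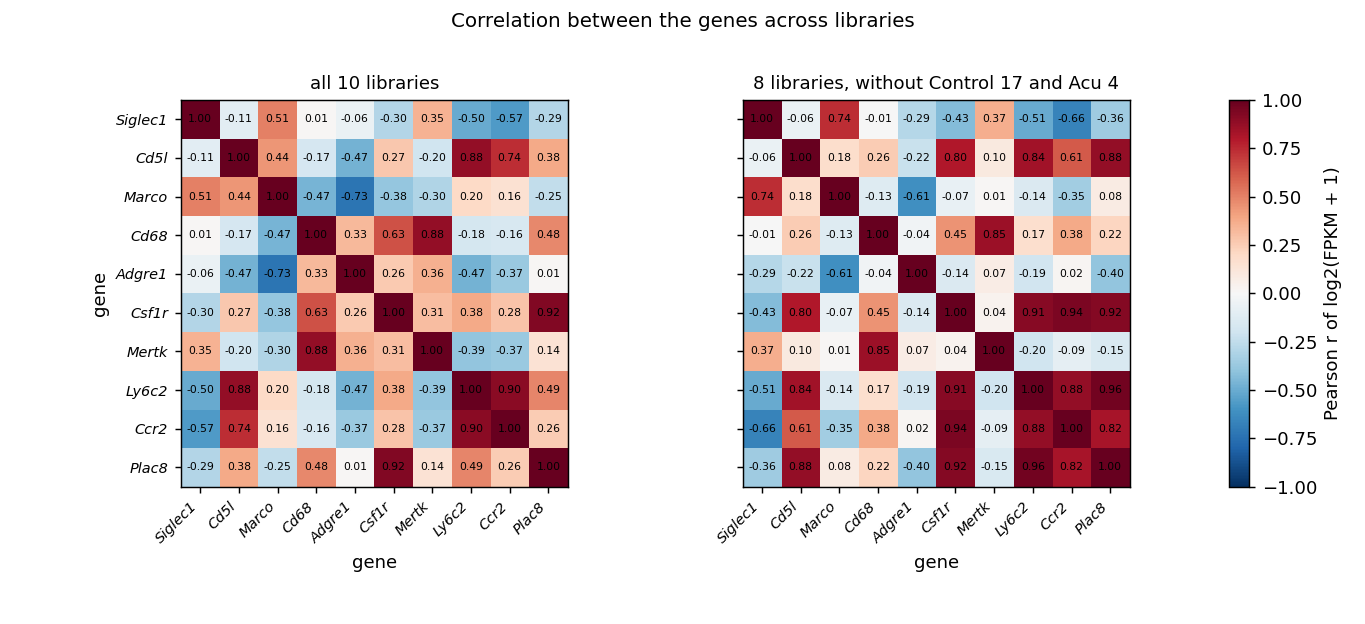
Pearson's r of log2(FPKM + 1) between each pair of the 10 genes across all 10 libraries (left) and across the 8 libraries without those labelled Control 17 and Acu 4 (right), from -1 in blue to 1 in red. Csf1r, Ly6c2, Ccr2 and Plac8 form a red block on the right, which splits on the left into Csf1r with Plac8 (0.92) and Ly6c2 with Ccr2 (0.90).

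The genes most like each member were sought among 12620 tested genes over the 10 libraries. For Ccr2 they were Clec4d, a lectin of monocytes and neutrophils (r = 0.98), the coagulation factor F10 (0.97) and the inhibitory receptor Pilra (0.97). For Ly6c2 they were the mitotic kinase Cdk1 (0.98), Pkig (0.98) and Fabp7 (0.98), and for Plac8 Topors (0.96), Pim1 (0.96) and Cst7 (0.96). Those of Cd68 were Gnpda1 (0.98), the Fc receptor chain Fcer1g (0.97) and Gltp (0.95), those of Csf1r Soat1 (0.97), Plaur (0.94) and Smim3 (0.93), and those of Cd5l Gng2 (0.97), Lyn (0.96) and Rilpl2 (0.96). Mertk was nearest to Ssu72 (0.99), Ormdl2 (0.98) and Ube2e1 (0.97). AIA 10 had 0 reads of Mertk, and the part of that library in this likeness was not tested. Adgre1 was nearest to Capn10 (0.94), Tm7sf3 (0.93) and Nagk (0.92), and Marco to Insm1 (0.92), Egr1 (0.91) and Nle1 (0.90). Siglec1 had the weakest likeness of the 10, to Gatsl2 (0.83), Smox (0.81) and Rragd (0.81). Over the 8 libraries the r of these same pairs ran from 0.84 (Marco and Nle1) to 0.99 (Ly6c2 and Cdk1). The pairs are the highest picked from many genes and are descriptions with no test.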

How the data were processed

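The authors deposited FPKM per gene and library, with gene names, lengths and coordinates. The labels' protocols give Trizol extraction and the NEBNext Ultra RNA kit. Per the submitters' processing notes, which give no roles, the build was mm10 and the tools were DESeq2 1.16.1, featureCounts 1.5.0-p3, StringTie 1.3.3b and HISAT2 2.0.5. FPKM times gene length came to whole reads (to within 0.01 read) at 100% of the values above 0. The deposited FPKM were already scaled between libraries in proportion to their median-of-ratios size factors, so they were used as they stand. Tests on log2(FPKM + 1) took the genes that reached 0.5 FPKM in 3 or more libraries. limma 3.58.1 in R 4.3.3 fitted all groups together with a mean-variance trend. P-values were adjusted by Benjamini and Hochberg over all genes tested, with a threshold of 0.05. The filter was computed again for each set of libraries, and all 10 genes passed it in each set, except Cd5l in the fit of Acu and Control alone. A gene near 0 in 1 group, such as Cd5l, passed through the groups where it is high.

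SE is limma's moderated standard error, and intervals come from the same fit. The SD of a group is given in FPKM. The upper limit of a gene with 0 reads is 3 reads, and it covers counting error only. Other settings tried were a pseudocount of 0.1, no filter, scaling by total reads, voom on the recovered reads, array weights, fits of the 2 groups compared, and leaving out libraries. The fit was also run on simulated libraries drawn from a common mean per gene, apart from set changes in AIA. They lack the differences in tissue between the real libraries, so they do not show how the fit behaves on these. Leaving out AIA 10 together with the libraries labelled Control 17 and Acu 4 was chosen after seeing the data. The genes and the 16 other gene lists were chosen with earlier results of these data known. Beside the 10 genes, the text names, per list, up to 3 genes with the largest change over the 8 libraries in AIA minus Control and in Acu minus AIA, the 3 genes most correlated with each of the 10, Ly6c1, and a few genes for what the libraries hold. One gene that this rule names is not reported here. Others are named as picked after their values were seen, and so was Xist. Itgam has a second row, a read-through with values near 0, and was counted once. The rest used biopython 1.88, matplotlib 3.10.9, pandas 2.3.3, numpy 2.4.6 and scipy 1.17.1 under Python 3.11.15.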

Additional observations from a re-analysis of the deposited data

Results flagged for a closer look

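Within the AIA group, the only group of 4 libraries, Marco was far higher in AIA 38 (3.70 FPKM) than in the other 3 libraries (1.14 to 1.35 FPKM), with a gap of 0.920 of the group's whole range. Csf1r was lower in AIA 31 (35.5 FPKM) than in the other 3 (52.2 to 54.1 FPKM), with a gap of 0.898 of the range. Both exceed the critical value for a group of 4, and chance passes it in about 1 in 20 groups, here over 10 genes. Siglec1 in AIA 38 came close, at 0.814.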

How the results depend on the processing

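No paired analysis was possible because the groups share no replicate number. Genes called in AIA minus Control, 4 over all 10 libraries, were 0 with a pseudocount of 0.1, 1 without the filter, 27 scaled by total reads, 0 with voom, 3319 with array weights, 785 in a fit of the 2 groups, 2156 without the libraries labelled Control 17 and Acu 4, 443 without Control 15 as well and 3398 without AIA 10 in its place. Leaving out 1 library at a time gave 0 to 1713, the highest without the library labelled Acu 4, and 967 without the one labelled Control 17. Of the 10 genes, 0 were called over all libraries, 2 with array weights, 3 in the fit of 2 groups, 5 without both libraries, 6 without AIA 10 as well, and 0 to 3 with 1 library left out (3 without that labelled Acu 4, 2 without that labelled Control 17). In Acu minus AIA, 0 genes became 2 without the filter, 98 with array weights and 0 to 1 with 1 library left out. In Acu minus Control, 0 became 1 without the filter, 2067 with array weights, 698 without both libraries, 2096 without AIA 10 as well and 0 to 303 with 1 left out, of which the 10 genes gave 2 with array weights, 2 without both, 3 without AIA 10 as well and 0 to 1 with 1 left out.

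Signs turned for some genes, in comparisons that these genes did not pass over all 10 or over the 8 libraries. Of them, Cd68 passed in AIA minus Control once AIA 10 was left out as well. In AIA minus Control, Marco (0.21 over all libraries) was -0.054 with array weights, -0.40 without both libraries, -2.07 without Control 15 as well and -0.32 without AIA 10 as well. Mertk (-0.50) was 0.22, 0.0173, 0.57 and 0.69 in the same order, and Adgre1 (-0.58) was 0.49 without Control 15 as well. In Acu minus AIA, Cd5l (-0.32) was 1.65 with array weights, 1.19 without both libraries and without Control 15 as well, and 1.48 without AIA 10 as well. Marco (0.18) was -0.28 with a pseudocount of 0.1 and -0.46 with voom. Cd68 (0.56) was -0.31 with array weights and -0.49 without both libraries and AIA 10. Csf1r (0.04) was -0.17 without both, the same without Control 15 as well, and -0.13 without AIA 10 as well. In Acu minus Control, Siglec1 (0.09) was -0.12 without both and without AIA 10 as well, and -0.53 without Control 15 as well. Marco (0.40) was -1.12 without Control 15 as well. Adgre1 (0.22) was -0.32 with array weights and -0.16 without both and without AIA 10 as well. With 1 library left out, AIA minus Control ran from -0.40 to 1.36 for Marco, -0.79 to 1.14 for Cd68 and -1.03 to 0.18 for Mertk. Acu minus AIA ran from -1.11 to 1.19 for Cd5l, -0.43 to 0.95 for Marco, -0.135 to 0.94 for Cd68, -0.17 to 0.23 for Csf1r and -0.62 to 0.13 for Plac8. Acu minus Control ran from -0.0791 to 0.39 for Siglec1, -0.22 to 1.54 for Marco, -0.23 to 1.70 for Cd68 and -0.31 to 0.62 for Adgre1. The cause was not tested. Scaling by total reads put the median of all genes at 0.21 in Acu minus Control, against 0.02. Cd5l was below the filter in the fit of Acu and Control alone and has no value there.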
